A study of Mus musculus with 6 samples.

Results

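The proteasome is the protease that degrades ubiquitin-tagged proteins in the cytosol and nucleus. Its 20S core is a barrel of alpha and beta rings with the protease sites inside, and the 19S particle that caps it recognises tagged proteins, removes the ubiquitin chain, unfolds the protein with a ring of ATPases and feeds it into the core. Dedicated chaperones help to assemble both pieces, and further activators and inhibitors bind the ends of the core. Pancreatic acinar cells, which make and secrete digestive enzymes, rely on the proteasome to clear proteins that fail to fold in the endoplasmic reticulum.

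The genes described here are those whose symbol starts with Psma, Psmb, Psmc, Psmd, Psme, Psmf or Psmg followed by a digit, without the immunoproteasome genes Psmb8, Psmb9 and Psmb10 and the PA28 activator genes Psme1 and Psme2. This rule took 40 of the 10245 genes in the table. Of these, 13 encode subunits of the 20S core, 17 encode subunits of the 19S particle, 7 encode assembly chaperones and 3 encode end-binding activators or an inhibitor. Psma3 was not analysed here.

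RNA-seq was performed on whole pancreas of 3 control mice of the genotype Ptf1a(CreER/+) and 3 Ptf1a cKO mice of the genotype Ptf1a(CreER/fl), in which the gene of the acinar transcription factor PTF1A is deleted in the adult. Both groups carried the CreER allele, a tamoxifen-inducible Cre inserted at Ptf1a that itself makes no PTF1A, so the controls had a single working copy of the gene and recombination was limited to cells using the Ptf1a locus, the acinar cells. All mice received 3 doses of tamoxifen at 0.25 mg/g and were sacrificed on day 14. Each group held 1 male and 2 females, the controls were 4 months old and the cKO mice 5 months old, so the effects of age and of genotype cannot be told apart. Values are read counts that the authors normalized across libraries, with the median gene of a library between 125 and 129 normalized counts.

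The deletion was visible in the libraries. Ptf1a itself stood at 566, 601 and 652 normalized counts in the controls and at 19.8, 70.1 and 10.2 in the cKO mice. Of 33 digestive enzyme and acinar secretory genes, 25 fell and 1 rose, with a median log2 fold change of -2.15. Markers of ductal cells (4 of 8), leukocytes (8 of 10) and fibroblasts (9 of 10) rose, and none of those lists had a gene that fell. In whole tissue such as this, fewer cells of a type and less RNA per cell cannot be told apart.

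Against that background the proteasome genes moved little. In the limma test across all genes with Benjamini-Hochberg adjustment, in which an adjusted p under 0.05 counts as past the threshold, 7 of the 40 proteasome genes (17.5%) passed, compared with 33.9% of all genes tested. Of these, 5 were higher in Ptf1a cKO (Psma1, Psmb4, Psmc5, Psmd1 and Psmd14) and 2 were lower (Psmd6 and Psme3). The shares over all genes were 17.1% higher and 16.8% lower. The median size of the change, ignoring its sign, was 0.21 on the log2 scale for the proteasome genes and 0.33 for all genes, and 37 of the 40 changed by less than 0.5.

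The precision of the data also bounded most of the changes that did not pass. The 95% interval of the change lay within 2-fold in both directions for 39 of the 40 genes, compared with 70.2% of all genes. Psmd6 was the exception. Among the 33 genes that did not pass, no interval reached beyond 0.91 on the log2 scale, the upper bound of Psmb3. The control and cKO values did not overlap in 18 of the 40 genes, 13 with the cKO mice higher and 5 with them lower, compared with 50.8% of all genes in either direction. For a single gene with 3 mice against 3, the smallest p that an exact two-sided permutation test can give is 0.1. Groups that do not overlap always give that value, so it adds nothing for these 18 genes.

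**Figure D1:**
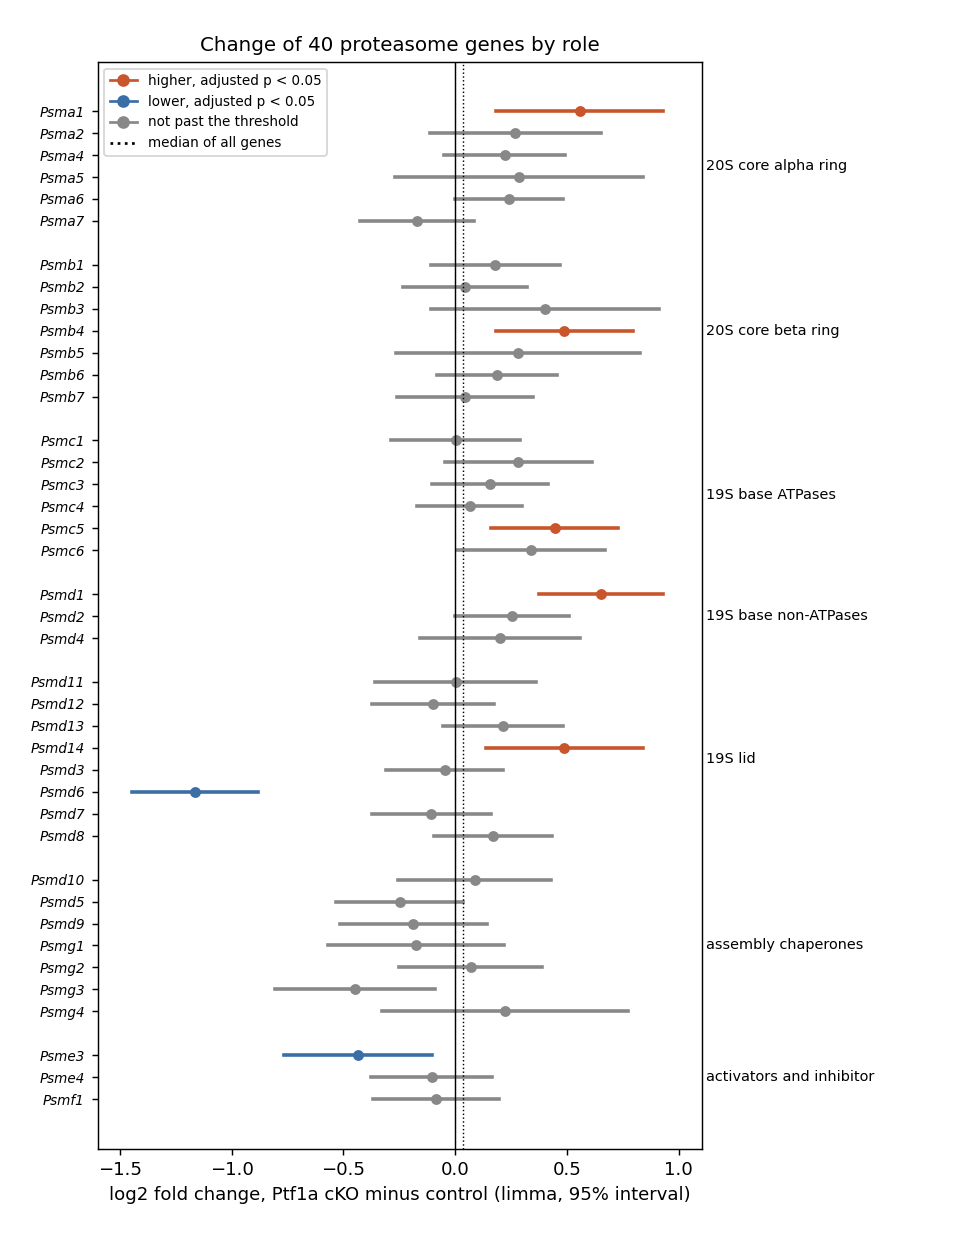
Log2 fold change of each of the 40 proteasome genes (Ptf1a cKO minus control, limma, points) with its 95% interval (lines), grouped by role. Orange marks the 5 genes that were higher and blue the 2 that were lower at an adjusted p under 0.05, grey marks the 33 that did not pass, and the dotted line is the median of all genes. Psmd6, a gene of the 19S lid, lies alone at -1.16.

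The changes were also described by role. On the authors' scaling, the median log2 fold change over the 30 constitutive subunits of the core and the 19S particle was 0.21. On average, 25 of the 30 were higher in the cKO mice. Over the 10 chaperones, activators and inhibitor the median was -0.14 and 3 of 10 were higher. The difference between these gene groups was not tested, and 5 of the 30 subunits passed as higher. Over all 40 genes the median was 0.16, with 28 (70.0%) higher, and over all genes of the table it was 0.04, with 53.1% higher. The median over the 40 was 0.12 to 0.13 above that of all genes under every scaling of the libraries. Each scaling multiplies a whole library by 1 factor, so this distance is nearly fixed by construction. It was 0.04 without cKO 1 and 0.07 without control 3. The sign of the median over the 40 depended on the scaling. Once the digestive enzymes were set aside and the remaining totals made equal, it was -0.02 and the median of all genes was -0.14. That scaling turned the sign of 10 of the 40 genes, all of them small increases that did not pass. The same 75th percentile turned none, the median of ratios turned Psmc1 and Psmd11, and the same total with the enzymes included turned the 12 genes that lay below 0.

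The subunit levels were uneven among the mice. Taken as the median of log2 ratios to the control mean, the 30 subunits stood at 0.03, 0.04 and -0.06 in the 3 controls and at 0.33, 0.15 and 0.12 in the 3 cKO mice. Thus all cKO mice lay above all controls on the authors' scaling, and cKO 1 lay highest. The summed normalized counts of the 30 also separated, narrowly, at 8655, 8646 and 7998 in the controls and 9813, 8682 and 8663 in the cKO mice. A sum gives more weight to genes with high counts, such as Psmd6 in the controls. With the digestive enzymes set aside the separation of the sums was lost. As a share of the remaining total, the 30 subunits summed to 2.98, 2.99 and 2.75 per mille in the controls. In the cKO mice the share was 2.77, 2.86 and 2.59 per mille. Without cKO 1, the median log2 fold change over the 40 genes dropped from 0.16 to 0.08. The 10 other genes stood at -0.02, 0.13 and -0.12 in the controls and at -0.14, -0.02 and -0.16 in the cKO mice, so the groups overlapped. The summed level of all 40 genes was 10564, 10683 and 9687 normalized counts in the controls and 11432, 10429 and 10212 in the cKO mice, which also overlapped.

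**Figure D2:**
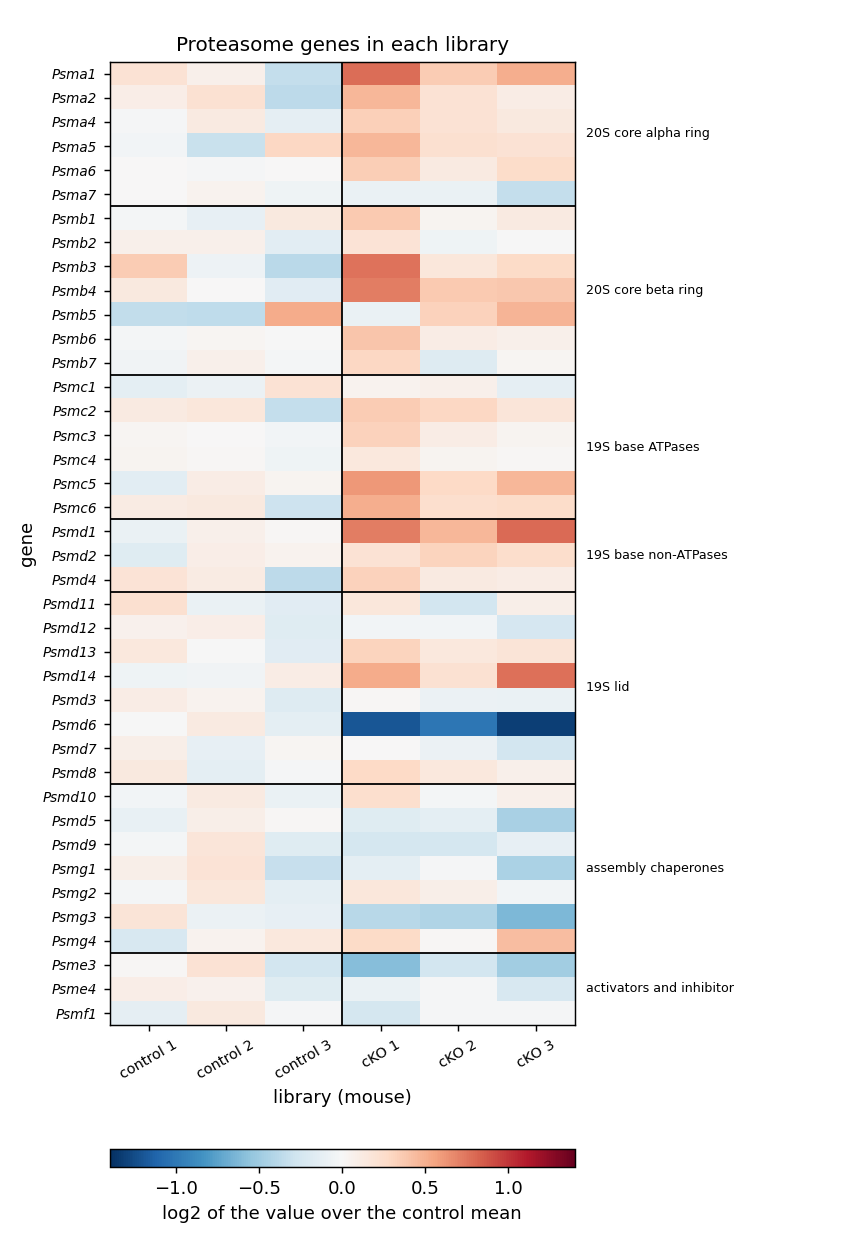
Each proteasome gene (vertical axis, grouped by role) in each of the 6 libraries (horizontal axis), coloured by the log2 ratio of its value to the mean of the 3 controls. Psmd6 is dark blue in all 3 cKO mice, while most core and base subunits are pale red in the cKO mice, most strongly in cKO 1.

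The alpha ring forms the gate of the 20S core. Of its 6 measured genes, Psma1 rose, none fell, and the median log2 fold change was 0.25. Psma1 stood at 204, 186 and 141 normalized counts in the controls and at 304, 226 and 252 in the cKO mice. All 3 cKO mice lay above all 3 controls, with a log2 fold change of 0.56 ± 0.17 (SE; limma, adjusted p = 0.0295). Psma2, Psma4, Psma5 and Psma6 had log2 fold changes from 0.22 to 0.28 and did not pass. Psma7 had the opposite sign. It measured 397, 411 and 380 normalized counts in the controls and 371, 372 and 315 in the cKO mice, a log2 fold change of -0.17 ± 0.11 (SE; limma, adjusted p = 0.272), and its groups did not overlap. Psma5 was the lowest of the 6, between 21.1 and 36.2 normalized counts, and its 3 control values were identical to those of Orc6, a gene of the origin recognition complex, as happened for 766 genes in the table.

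The beta ring holds the protease sites. Psmb5, Psmb6 and Psmb7 encode its catalytic subunits, and Psmb1, Psmb2, Psmb3 and Psmb4 encode structural ones. All 7 had log2 fold changes above 0 on the authors' scaling (Psmb1, Psmb2 and Psmb7 did not with the digestive enzymes set aside), from 0.04 to 0.49, and only Psmb4 passed. Psmb4 measured 404, 367 and 329 normalized counts in the controls and 604, 472 and 477 in the cKO mice. The groups did not overlap, and the log2 fold change was 0.49 ± 0.14 (SE; limma, adjusted p = 0.0229). Psmb2 had the smallest change of the ring, with 192, 192 and 165 normalized counts in the controls and 209, 176 and 182 in the cKO mice, for a log2 fold change of 0.04 ± 0.12. Its groups overlapped, and its 95% interval ran from -0.23 to 0.32.

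The 3 catalytic subunits were measured with different precision. Psmb6 and Psmb7 were close in all controls (329, 341 and 335 normalized counts for Psmb6, and 298, 324 and 304 for Psmb7). Their log2 fold changes were 0.19 ± 0.12 and 0.05 ± 0.13 (SE). Psmb5, which carries the chymotrypsin-like site, varied more, with 69.8, 69.0 and 126 normalized counts in the controls and 82.5, 110 and 123 in the cKO mice. Its log2 fold change was 0.28 ± 0.24, and control 3 lay above every cKO mouse.

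The base of the 19S particle contains 6 ATPases, Psmc1 to Psmc6, that unfold the substrate. Only Psmc5 passed, and the median log2 fold change of the 6 was 0.22. Psmc5 rose from 241, 287 and 275 normalized counts in the controls to 406, 325 and 368 in the cKO mice, with no overlap and a log2 fold change of 0.45 ± 0.13 (SE; limma, adjusted p = 0.0241). Psmc1 was the flattest, at 189, 196 and 238 against 214, 217 and 190 normalized counts. Its log2 fold change was 0.003 ± 0.13, with a 95% interval from -0.29 to 0.29. The other 4 lay between 0.07 (Psmc4) and 0.34 (Psmc6, adjusted p = 0.10 by limma).

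The base also has non-ATPase subunits, the scaffolds Psmd1 and Psmd2 and the ubiquitin receptor Psmd4. Psmd1 had the largest increase of all 40 genes. It measured 235, 263 and 252 normalized counts in the controls and 412, 345 and 434 in the cKO mice. Every cKO mouse lay above every control, the ratio of the group means was 1.59, and the log2 fold change was 0.65 ± 0.12 (SE; limma, adjusted p = 0.0039). The strand setting of the read counting is not given in the sources used here, and Psmd1 shares exon bases with Htr2b and Gm21972 in the annotation. The deposited values hold an entry for ambiguous reads, so reads in the shared bases may be missing from the Psmd1 value. Their part was not tested. The same holds for Psma4 (shared with AY074887), Psmb7 (Nek6), Psmc3 (Slc39a13) and Psmd13 (Sirt3). Psmd2, which binds to the same ring, had a log2 fold change of 0.26 ± 0.11 and did not pass (limma, adjusted p = 0.111). Psmd4 measured 357, 339 and 242 normalized counts in the controls and 392, 340 and 336 in the cKO mice, for a log2 fold change of 0.20 ± 0.16, and its groups overlapped.

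The lid of the 19S particle, a horseshoe of scaffold subunits around the deubiquitinating enzyme Psmd14, contained the largest fall of the 40 genes and 1 of the 5 increases. Psmd6, a scaffold subunit of the lid, stood at 827, 907 and 752 normalized counts in the controls and at 362, 410 and 333 in the cKO mice. The lowest control was thus far above the highest cKO mouse, and the mean was 829 ± 77.2 (SD, n = 3) in the controls and 368 ± 38.8 (SD, n = 3) in the cKO mice. The control mean was 2.25 times the cKO mean, and the log2 fold change was -1.16 ± 0.12 (SE; limma, adjusted p = 0.0003). Psmd14 moved the other way, from 83.4, 83.9 and 92.9 normalized counts to 124, 101 and 148, with no overlap and a log2 fold change of 0.49 ± 0.16 (SE; limma, adjusted p = 0.0379).

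The remaining 6 lid genes, Psmd3, Psmd7, Psmd8, Psmd11, Psmd12 and Psmd13, lay between -0.11 and 0.21 and none passed. Psmd11 was the flattest at 106, 85.2 and 81.5 normalized counts in the controls and 101, 75.9 and 96.3 in the cKO mice, with a log2 fold change of 0.003 ± 0.16. The lid thus had a median of -0.02, with 4 genes above 0 and 4 below, whereas all 9 genes of the base lay above 0 on the authors' scaling (Psmc1 lay below 0 with the median of ratios, and Psmc1, Psmc3 and Psmc4 with the digestive enzymes set aside).

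The fall of Psmd6 changed its place among the subunits. Levels of different genes were compared as normalized counts per kilobase of transcript, using the principal transcript of each gene (1387 bases for Psmd6). On this scale Psmd6 was the highest of the 30 constitutive subunits in each of the 3 controls, at 3.13, 3.30 and 3.21 times the median subunit. In the cKO mice it stood at 1.12, 1.50 and 1.15 times the median subunit and ranked 11, 6 and 11 of the 30. The place at the top was taken by Psmb6 in all 3 cKO mice, and Psma5 was the lowest subunit in all 6 libraries. With Psmd6 left out, the SD of the log2 level per kilobase among the other 29 subunits was 1.09, 1.12 and 1.08 in the controls and 1.05, 1.06 and 1.01 in the cKO mice.

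**Figure D3:**
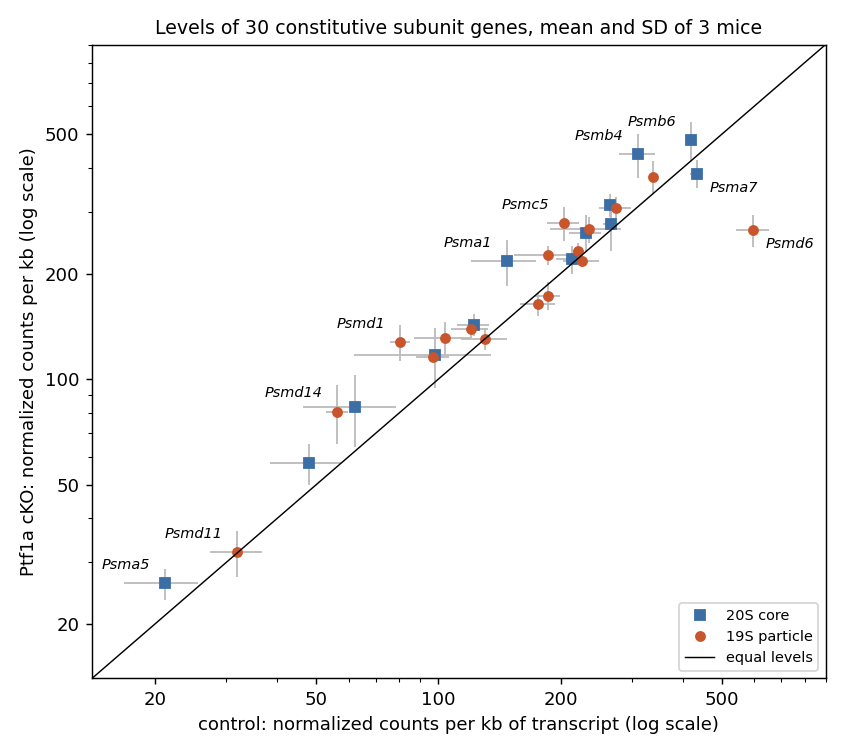
Mean level of the 30 constitutive subunit genes in control (horizontal axis) and Ptf1a cKO mice (vertical axis), in normalized counts per kilobase of transcript on log scales, with SD bars over 3 mice. Blue squares are 20S core genes and orange circles 19S genes. Most points lie on or just above the line of equal levels, while Psmd6 drops from 597 to 266.

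Assembly chaperones bind intermediates and leave before the proteasome is complete. None of their 7 genes passed in either direction, and their median log2 fold change was -0.17. Psmg3, a chaperone of the alpha ring, came nearest. It measured 77.4, 64.2 and 62.8 normalized counts in the controls and 52.0, 50.8 and 44.0 in the cKO mice, without overlap, for a log2 fold change of -0.45 ± 0.16 (SE; limma, adjusted p = 0.0553). It shares exon bases with Gm26938. Psmg2 measured 68.4, 77.8 and 63.6 against 78.1, 73.9 and 68.3 normalized counts, overlapping, with a log2 fold change of 0.07 ± 0.14. Psmg1 and Psmg4 had log2 fold changes of -0.17 and 0.22, and the base chaperones Psmd5, Psmd9 and Psmd10 had -0.25, -0.19 and 0.09.

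The genes of the end-binding proteins all had log2 fold changes below 0. Psme3, which encodes the nuclear activator PA28 gamma, fell from 472, 540 and 392 normalized counts in the controls to 310, 390 and 334 in the cKO mice. The groups were separated by a narrow gap between control 3 and cKO 2, and the log2 fold change was -0.43 ± 0.15 (SE; limma, adjusted p = 0.0475). Psme4, which encodes the activator PA200, had a log2 fold change of -0.11 ± 0.12 and did not pass. Psmf1, the inhibitor PI31, measured 145, 174 and 157 against 134, 157 and 157 normalized counts, and its log2 fold change of -0.09 ± 0.12 was within the spread of the mice.

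The 7 calls differed in how much they rested on single mice. Psmd1 and Psmd6 passed in each of the 6 fits that left out 1 library, with log2 fold changes from 0.59 to 0.75 and from -1.24 to -1.09. The other 5 kept their sign and lost the call in part of these fits. Psma1 was at an adjusted p (limma) of 0.0609 without control 2, 0.0761 without control 3, 0.0997 without cKO 1 and 0.063 without cKO 3. Psmb4 was at 0.0685 without control 2, 0.0644 without control 3 and 0.0764 without cKO 1. Psmc5 was at 0.0943 without control 1, 0.0844 without cKO 1 and 0.0609 without cKO 3. Psmd14 passed only without cKO 2, and its adjusted p was 0.106, 0.105 and 0.0536 without controls 1, 2 and 3, and 0.0927 and 0.135 without cKO 1 and cKO 3. Psme3 was at 0.126 and 0.169 without controls 1 and 2, and at 0.143 and 0.109 without cKO 1 and cKO 3. At an adjusted p under 0.01 only Psmd1 and Psmd6 remained.

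The calls also depended on scaling, since digestive enzymes made up most of the normalized counts assigned to genes in the controls. With the libraries set to the same total including these enzymes, the median of all genes moved to 1.49 on the log2 scale, 98.7% of the calls over all genes were increases in place of 50.4%, and Psmd6, at 0.33, was the proteasome gene that did not pass (limma, adjusted p = 0.187) while the other 39 were called higher. With the same total excluding the digestive enzymes, 29.2% of the calls were increases, Psmd1 was the single proteasome gene called higher, and Psmd5, Psmd6, Psme3 and Psmg3 were called lower. Psmd6 lay below the median gene under every scaling, but that distance is nearly fixed, because each scaling multiplies a whole library by 1 factor.

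The immunoproteasome is the form in which Psmb8, Psmb9 and Psmb10 take the place of Psmb5, Psmb6 and Psmb7. Interferon induces it, leukocytes carry it constitutively, and the paired activator PA28 is made from Psme1 and Psme2. These 5 genes, left out of the 40 by the rule, did not move as a group. Psmb10 fell and Psme1 rose, while Psmb8, Psmb9 and Psme2 did not pass.

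Psme1 stood at 60.1, 57.0 and 48.5 normalized counts in the controls and at 178, 119 and 177 in the cKO mice, a log2 fold change of 1.44 ± 0.18 (SE; limma, adjusted p = 0.000526) with no overlap. Psme1 shares exon bases with Emc9. Psmb9 shares exon bases with Tap1, a gene of the class I loading list with a log2 fold change of 1.19 (limma, adjusted p = 0.0677). Reads in these shared bases may likewise be missing from the values, and their part was not tested. Psmb8 measured 46.0, 28.3 and 35.1 against 124, 31.0 and 165 normalized counts, and cKO 2 lay within the control range. Psmb9 showed the same distribution, with 27.6, 15.5 and 27.1 in the controls and 70.1, 17.6 and 82.0 in the cKO mice. Their log2 fold changes were 1.21 ± 0.50 and 0.96 ± 0.49 (SE; limma, adjusted p = 0.0924 and 0.158). Without cKO 2 they were 1.90 and 1.60 and both passed (limma, adjusted p = 0.000245 and 0.00218). Psme2 was low and scattered, at 19.7, 12 and 37.7 against 40.3, 19.3 and 44.6 normalized counts.

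The same mouse, cKO 2, had the lowest immune marker levels of the 3 cKO mice. The median log2 ratio to the control mean was 1.15, 0.80 and 1.65 for leukocyte markers in cKO 1 to 3, 2.66, 0.30 and 2.38 for MHC class II genes, and 1.44, 0.50 and 1.65 for interferon response and class I loading genes. Leukocyte markers, of which 8 of 10 rose, summed to 530.0 to 859 normalized counts in the controls and 1328 to 3056 in the cKO mice, and none of them was at 0. MHC class II genes, of which 3 of 5 rose, summed to 681 to 1478 and 1191 to 5944, and interferon response genes, of which 6 of 8 rose, to 1054 to 1535 and 2037 to 5693. The part of these cells in the values of Psmb8, Psmb9 and Psme1 was not tested. The mouse cKO 2 was also the male of the cKO group. It kept the most Ptf1a RNA, at 70.1 normalized counts against 19.8 in cKO 1 and 10.2 in cKO 3. Its digestive enzyme genes had a median log2 ratio of -1.469, against -2.235 in cKO 1 and -2.912 in cKO 3. Its endocrine markers had the lowest median log2 ratio of the cKO mice, at -1.648, against 0.658 in cKO 1 and 1.234 in cKO 3. Its proliferation markers had the highest, at 2.835, against 0.733 in cKO 1 and 0.859 in cKO 3. In 1 mouse these traits cannot be told apart.

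Psmb10 went the other way. It measured 1578, 1472 and 1184 normalized counts in the controls and 297, 523 and 253 in the cKO mice, with no overlap and a log2 fold change of -2.03 ± 0.24 (SE; limma, adjusted p = 0.000476). Per kilobase of transcript it stood at 4.69, 4.03 and 3.45 times Psmb7 in the controls and at 0.70, 1.70 and 0.72 times Psmb7 in the cKO mice. In contrast, Psmb9 stood at 0.03 to 0.05 times Psmb6 in the controls and at 0.09, 0.03 and 0.14 times Psmb6 in the cKO mice. Psmb7 shares exon bases with Nek6, so reads may be missing from its value, and their part was not tested. Psmb10 lies 1872 bases upstream of Ctrl, the chymotrypsin-like digestive enzyme gene on the same strand of chromosome 8, which itself fell by 2.81 on the log2 scale. The Psmb10 value was 0.309%, 0.328% and 0.294% of that of Ctrl in the controls and 0.421%, 0.463% and 0.751% in the cKO mice. The part of reads from Ctrl in the Psmb10 value was not tested.

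**Figure D4:**
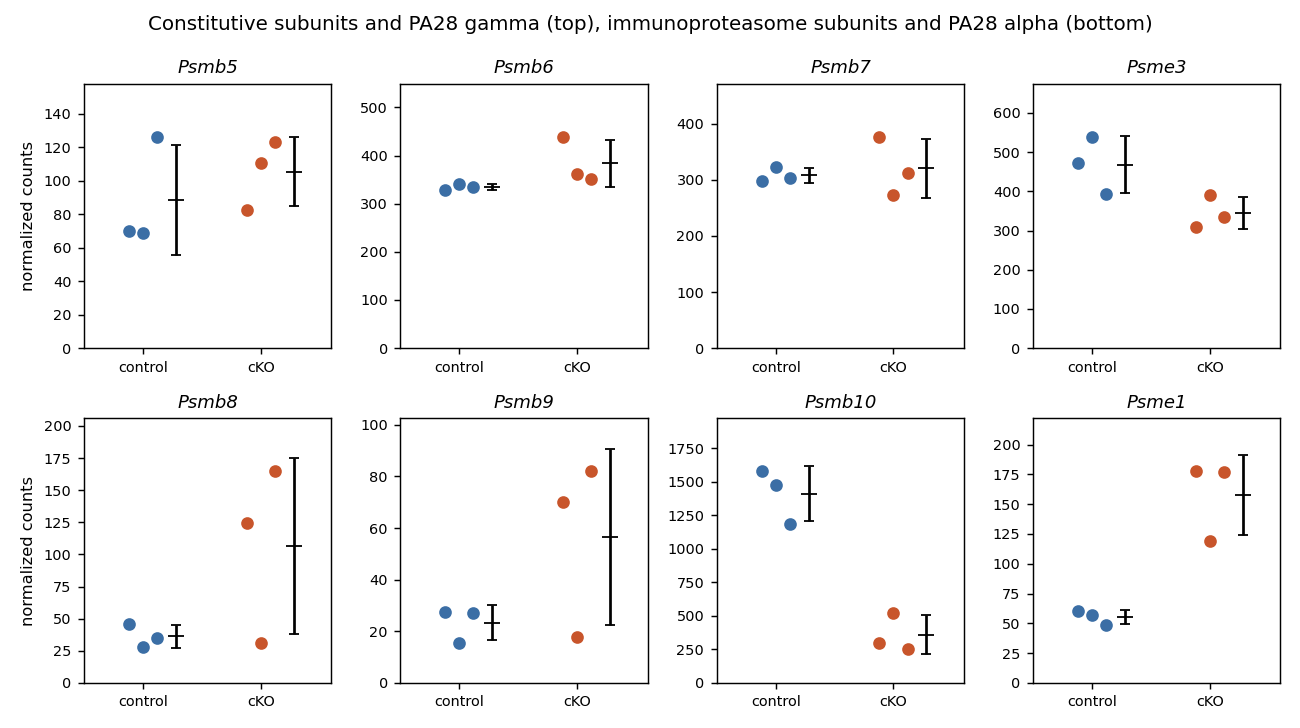
Normalized counts (vertical axes from 0, a scale for each panel) of the constitutive catalytic subunits Psmb5, Psmb6 and Psmb7 and of Psme3 (top), and of the immunoproteasome subunits Psmb8, Psmb9 and Psmb10 and of Psme1 (bottom). Points are mice, and black marks give the mean and SD of 3. Psmb10 drops from 1184 or more to 523 or less, Psme1 rises in all 3 cKO mice, and cKO 2 sits with the controls for Psmb8 and Psmb9.

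The proteasome works with proteins that deliver, trim and unfold its substrates, and 32 further genes of this pathway, the 5 above included, were in the table. Of these, 3 rose and 5 fell, 25.0% in all compared with 33.9% of all genes. The subunit genes Adrm1 and Shfm1 and the core chaperone gene Pomp had log2 fold changes of 0.07, -0.002 and 0.14 and did not pass. Among 11 genes of proteasome-associated enzymes and shuttle factors, 2 fell. Uchl5, a deubiquitinase that docks on the 19S particle through Adrm1, fell from 339, 376 and 284 normalized counts to 173, 189 and 149, with no overlap and a log2 fold change of -0.95 ± 0.14 (SE; limma, adjusted p = 0.0013). Ubqln4, a shuttle factor, stood at 448, 497 and 473 normalized counts in the controls and at 275, 387 and 312 in the cKO mice. It fell by 0.55 on the log2 scale (limma, adjusted p = 0.0155), and it lost the call without control 2 (adjusted p = 0.0608) and without cKO 1 (adjusted p = 0.0534). Usp14, the other deubiquitinase bound to the 19S particle, had a log2 fold change of 0.16 ± 0.11 and did not pass.

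Vcp, the p97 ATPase that pulls proteins out of the endoplasmic reticulum membrane, rose by 1.43 ± 0.39 on the log2 scale (SE; limma, adjusted p = 0.0214), but its mice were scattered. It stood at 67.9, 192 and 60.6 normalized counts in the controls and at 181, 329 and 283 in the cKO mice, so that control 2 lay above cKO 1. The call was lost without control 1 (adjusted p = 0.0836), control 3 (0.0802) or cKO 3 (0.0604). Its cofactor genes Nploc4, Ufd1l and Nsfl1c had log2 fold changes of -0.09, 0.33 and -0.01 and did not pass. Ubb and the E1 enzyme genes Uba1 and Uba6 did not pass.

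Transcription of the subunit genes is raised by NFE2L1 when proteasome capacity is short, after NGLY1 removes its sugars and DDI2 cleaves it, and the related factor NFE2L2 binds the same antioxidant response element together with small MAF proteins. The genes of this regulatory group moved in both directions. Nfe2l2 rose from 214, 237 and 234 normalized counts to 395, 366 and 469, with no overlap and a log2 fold change of 0.83 ± 0.12 (SE; limma, adjusted p = 0.0014). Ngly1 fell from 341, 407 and 409 to 272, 278 and 221 normalized counts, by 0.58 on the log2 scale (limma, adjusted p = 0.0097), also without overlap. Mafk fell from 262, 292 and 317 to 192, 191 and 188, by 0.60 (limma, adjusted p = 0.0040). Nfe2l1, Ddi2 and Mafg, with log2 fold changes of -0.26, 0.18 and 0.16, did not pass.

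Promoter sequences were compared because genes of 1 complex can share regulatory letters. RefSeq windows (GRCm38.p6) of 300 bases, from 250 before to 50 after the start, were found for 33 of the 40 genes. The letters TGACNNNGC, the core of the antioxidant response element, occurred on either strand in 6 of the 35 windows of these genes (17.1%), compared with 12.4% of all 32851 promoter windows. CCAAT occurred in 31.4% of these windows against 37.4% of all windows, and the GC box GGGCGG in 57.1% against 35.7%. A genome position in GRCm38 was taken from the gene symbol, whereas the authors' reads were counted on the mm9 build.

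The TGACNNNGC matches of the catalytic genes Psmb5 (chr14:54618023-54618062, minus strand) and Psmb6 (chr11:70525328-70525356, plus strand) are shown in capitals, 47 and 9 bases before the start. Neither gene passed the test, and of the 5 genes that rose, none had this match in its window. With the match in 12.4% of all promoter windows, 5 genes are too few to read this as a result.
Psmb5: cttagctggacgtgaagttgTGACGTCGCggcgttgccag
Psmb6: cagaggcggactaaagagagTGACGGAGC

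Sequence upstream of genes that passed the test is shown for the 2 that fell, Psmd6 and Psme3, and for 4 of the 5 that rose, Psma1, Psmb4, Psmc5 and Psmd14. Bases of annotated exons were left out, which left 100 bases each (74 for Psmc5). For Psmd1 this left 18 bases without a match, which are not shown. The stretches lie at chr14:14120985-14121084 (Psmd6, minus strand), chr11:101316113-101316212 (Psme3, plus strand), chr7:114276119-114276218 (Psma1, minus strand), chr3:94886962-94887061 (Psmb4, minus strand), chr11:106256080-106256153 (Psmc5, plus strand) and chr2:61711594-61711693 (Psmd14, plus strand). Capitals mark CCAAT and GGGCGG on either strand. The stretches of Psmd6, Psma1 and Psmd14 hold GGGCGG or its reverse complement, those of Psma1 and Psme3 hold CCAAT or its reverse complement, and those of Psmb4 and Psmc5 hold none of these letters.
Psmd6: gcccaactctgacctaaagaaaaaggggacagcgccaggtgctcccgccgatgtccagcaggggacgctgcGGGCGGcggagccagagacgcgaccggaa
Psme3: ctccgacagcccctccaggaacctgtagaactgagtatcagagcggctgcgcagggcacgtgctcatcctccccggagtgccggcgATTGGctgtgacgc
Psma1: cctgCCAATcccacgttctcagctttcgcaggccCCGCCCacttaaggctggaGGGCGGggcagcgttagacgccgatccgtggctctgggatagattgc
Psmb4: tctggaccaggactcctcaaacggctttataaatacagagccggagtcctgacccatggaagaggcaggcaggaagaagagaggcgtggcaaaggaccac
Psmc5: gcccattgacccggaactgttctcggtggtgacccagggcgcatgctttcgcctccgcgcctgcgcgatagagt
Psmd14: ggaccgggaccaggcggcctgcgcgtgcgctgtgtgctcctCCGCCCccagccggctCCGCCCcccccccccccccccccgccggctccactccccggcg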

How the data were processed

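Whole-pancreas RNA was sequenced from 3 control and 3 Ptf1a cKO mice, grouped by genotype label. Per the labels and methods, the authors aligned reads with TopHat2 2.0.4 and Bowtie 0.12.7.0 and counted them with HTSeq 0.6.0 on mm9, and the deposited values are a signal, namely normalized read counts with decimals. Whole reads could not be recovered, so count models were not used, depth per library, which the methods state as aligned reads, is not carried by the scaled values, no counting error was computed, and precision rests on the 3 mice of each group. A set of 3 entries without a gene (75.7% to 82.6% of a library) was left out.

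Values were divided by 13.6 (1 factor for all libraries), and log2(value + 0.25) was compared with limma 3.58.1 in R 4.3.3 (mean-variance trend, two-sided, Benjamini-Hochberg over 10245 genes, adjusted p under 0.05). Genes with a mean under 0.25 would have been dropped, but all 40 proteasome genes were above it. Fold changes are on this scale and understate those of low genes. The code was tested on simulated data.

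The genes and lists were chosen with earlier results of these data known, and some genes of the pathway and marker lists are not reported here. Values by mouse are given for the proteasome and pathway genes past the threshold and, among the 40, for the largest and smallest change in each role. Positions, transcript lengths and promoters came from GRCm38 by symbol and were not converted to mm9. Same-numbered mice deviated together with correlations of 0.04, 0.13 and 0.14, so numbers were not taken to pair mice. Alternatives covered the pseudocount, filter, scaling, variance model, sex, a replicate block, the threshold and each library left out.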

Additional observations from a re-analysis of the deposited data

How the results depend on the processing

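The scaled values do not carry the read depth, so no counting error was computed, and read-count models were not run because whole reads could not be recovered. Other pseudocounts (0.05 and 1), other filters and robust limma left the 5 higher and 2 lower proteasome genes and the 2 immunoproteasome genes as counts. With the same total per library there were 39 higher and 0 lower (all 40 log2 fold changes were above 0), a median of 1.605, 9719 genes past the threshold over the table and 5 immunoproteasome genes. With the same total without digestive enzymes there were 1 higher and 4 lower with a median of -0.024. There was 1 lower with the same 75th percentile, with sex as a covariate and over constitutive subunits alone, and there were 3 higher in limma without the trend. With an adjusted p under 0.01 there were 1 higher and 1 lower, and 1794 over the table. The replicate block, in mice that share only a number (5 of 6 libraries correlated best with their own number), gave 4 immunoproteasome genes and 3525 over the table in place of 3475.

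Leaving out 1 library gave 1 to 5 higher, 1 to 2 lower, 2 to 4 immunoproteasome genes (4 without cKO 2), 2363 to 3601 genes over the table and medians from 0.077 to 0.179. With the same total, genes below 0 came out above 0: Psma7 at 1.316, Psmd3 at 1.443, Psmd5 at 1.223, Psmd6 at 0.326, Psmd7 at 1.375, Psmd9 at 1.247, Psmd12 at 1.384, Psmg1 at 1.270, Psmg3 at 0.972, Psme3 at 1.053, Psme4 at 1.385, Psmf1 at 1.382, Uchl5 at 0.525, Ubqln4 at 0.935, Mafk at 0.880 and Ngly1 at 0.900, where the median of all genes was 1.49. That setting raises all genes by its construction, and the cause of the other changes was not tested. Psmg3 passed with the median of ratios (limma, adjusted p = 0.0473) and without the trend (0.0409), and Vcp did not pass with robust limma (0.075).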

Other observations

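Peptides released by the proteasome are cut further by peptidases, and 9 such genes were looked up after their values had been seen, so they are given as values with no test. Erap1, which trims peptides in the endoplasmic reticulum for class I presentation, stood at 77.5, 68.8 and 73.7 normalized counts in the controls and at 162, 108 and 171 in the cKO mice, with a log2 fold change of 0.95 ± 0.18 (SE). Thop1, a cytosolic oligopeptidase, stood at 387, 326 and 359 in the controls and at 147, 248 and 122 in the cKO mice, with a log2 fold change of -1.10 ± 0.23 (SE). The cytosolic aminopeptidase Lap3 measured 438, 464 and 449 normalized counts in the controls and 309, 303 and 278 in the cKO mice. Blmh, Tpp2, Npepps and Prep had log2 fold changes of 0.42, 0.38, 0.26 and 0.05, and Nln and Nrd1 had -0.54 and -0.36. The groups overlapped for Prep and Nrd1 and not for the other peptidases. Over all genes, 50.8% did not overlap.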
